A study of Homo sapiens with 4 samples.

Results

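The genes described here are 10 genes of the endometrial epithelium, of receptivity and of decidual secretion, out of 58522 genes listed in an RNA-seq table of Ishikawa cells. They were chosen by name with earlier results of these data known, and Ensembl identifiers were matched to symbols. They comprise the transcription factor genes *SOX17*, *FOXA2*, *MSX1* and *MSX2*, the genes of the secreted proteins PAEP, IGFBP1 and SPP1, and the genes of the surface proteins MUC1, MUC16 and DPP4. Ishikawa is a human cell line derived from an endometrial adenocarcinoma, and the labels give it as endometrial epithelial. The cells carried either an shRNA against *CDYL* (*CDYL*-sh, 2 libraries), which encodes a chromodomain corepressor, or a negative control shRNA (control, 2 libraries). According to the study's methods both groups received viral particles with polybrene and were selected with puromycin, in medium with serum, and no hormone treatment is stated for the sequenced cells. The *CDYL*-sh libraries are titled sh1 and sh2 (replicates 1 and 2 here). The study lists *CDYL* hairpins named sh1, sh2 and sh3 and describes Ishikawa knockdown with sh1 and sh3, so whether the titles name hairpins or repeats is not settled, and the labels do not say which hairpin a library carried. They also do not say whether libraries came from separate cultures, so the p-values measure the spread between libraries, which may be technical.

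In the human endometrium, estradiol drives growth of the epithelium, and progesterone then turns the glands to secretion and opens a short period in which an embryo can attach. SOX17 and FOXA2 are needed for uterine glands in mice, and the homeobox factors MSX1 and MSX2 act together in the uterine epithelium of mice before implantation. Glycodelin, the product of *PAEP*, is the main secreted protein of secretory-phase glands, and IGFBP1 binds insulin-like growth factors and is the classical product of decidualized stroma. Osteopontin (*SPP1*) is a secreted ligand of integrins, MUC1 and MUC16 are large glycosylated mucins of the apical surface, and DPP4 is a membrane peptidase.

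The *CDYL*-sh libraries held 27451007 and 22341852 expected counts and the control libraries 27688447 and 26981051. *CDYL* itself measured 11.4 and 9.70 CPM (counts scaled to a common library size with TMM factors) in *CDYL*-sh and 50.4 and 53.0 CPM in control, which is 20.4% of the control level. All 14 epithelial markers reached 1 FPKM (fragments scaled by transcript length and by depth) in some library, with a summed level of 3163 and 3285 FPKM in *CDYL*-sh and 3008 and 3274 FPKM in control. Of 13 stromal markers, 4 reached 1 FPKM, *DCN* and *COL3A1* were listed at 0 in all libraries, and the summed level was 9.47 and 9.39 FPKM in *CDYL*-sh and 10.7 and 10.9 FPKM in control. Of 10 immune markers only *CD68* reached 1 FPKM, so the libraries read as epithelial. The stromal sums did not overlap between the groups. Nor did those of 9 markers of ciliated epithelium, 6 of which reached 1 FPKM (57.7 and 65 FPKM in *CDYL*-sh, 41.3 and 54.3 FPKM in control), of 6 smooth muscle markers (24.9 and 23.3 FPKM in *CDYL*-sh, 38.2 and 40.9 FPKM in control), of the immune markers, nearly all *CD68* (14.1 and 12 FPKM against 5.42 and 8.24 FPKM), and of 8 endothelial markers (4.65 and 4.47 FPKM against 2.73 and 3.28 FPKM). The ciliated sum was mostly *CAPS* (49.53 and 56.68 FPKM in *CDYL*-sh, 32.37 and 44.88 FPKM in control). *FOXJ1* overlapped between the groups (2.04 and 2.7 against 1.98 and 2.29 FPKM). The smooth muscle sum was mostly *SMTN* (22.07 and 19.75 against 32.39 and 34.76 FPKM). Of 7 ciliated markers tested 0 passed the test described below, and of 5 smooth muscle markers 3 passed as lower. The epithelial sums overlapped between the groups, but of the 14 epithelial markers 5 passed as higher and 2 as lower. *KRT19* stood at 515 and 558 FPKM in *CDYL*-sh against 295 and 362 FPKM in control. *KRT8* went the other way, at 779 and 823 FPKM in *CDYL*-sh against 911 and 1013 FPKM in control. With 2 libraries in each group, sums separate easily. The part of these markers in the results was not tested. The receptor gene for progesterone, *PGR*, and the decidual hormone gene *PRL* had no counts in any library, which allows up to 0.136 CPM in the shallowest, and the estrogen receptor gene *ESR1* had 6 and 5 counts in *CDYL*-sh and 6 and 6 in control. These 3 genes belong to the lists described further on and were singled out after their values were seen.

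Of the 10 genes, 5 passed edgeR's quasi-likelihood test, with 2 higher (*PAEP* and *SPP1*) and 3 lower (*IGFBP1*, *MSX1* and *SOX17*) in *CDYL*-sh. A further 3 were tested and did not pass (*FOXA2*, *MUC1* and *MUC16*), and 2 were under the filter on low counts (*MSX2* and *DPP4*). Among all 16158 genes tested 25.7% passed at an adjusted p under 0.05, with 13.6% higher and 12.1% lower, and the median log2 fold change was 0.01. The 3 secreted proteins gave the calls in opposite directions, the 2 transcription factors that passed both fell, and none of the surface proteins passed. *PAEP* and *IGFBP1* changed by more than 2-fold, and the other 3 by less. The transcripts were measured in whole cultures, so fewer cells with a transcript and less of it in each cell cannot be told apart.

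**Figure D1:**
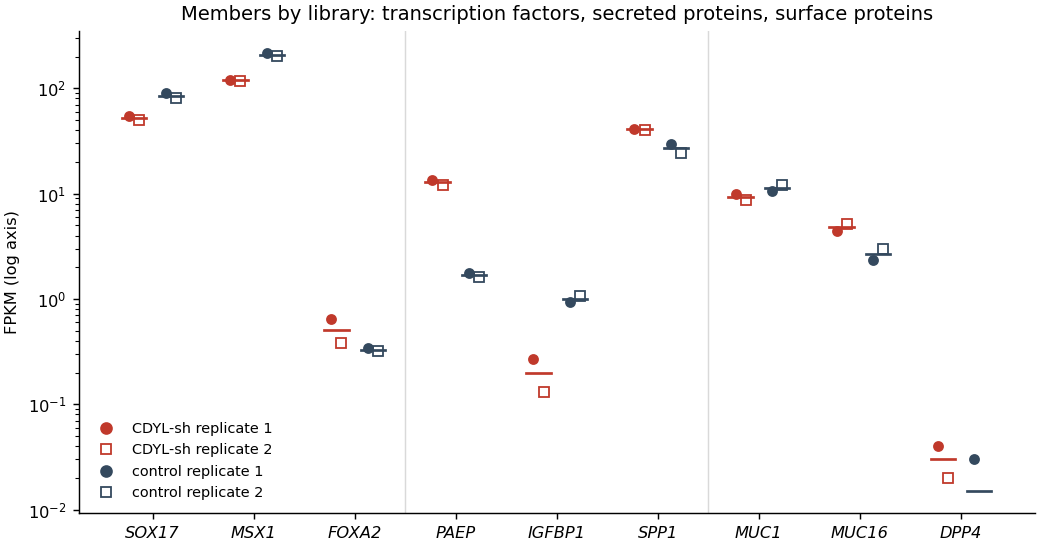
FPKM of each gene (log axis) in the *CDYL*-sh (red) and control (dark) libraries, with a line at the mean of each group; *DPP4* in control replicate 2 and *MSX2* in all libraries were at 0 and are not drawn. *PAEP* stood at 13.57 and 12.01 FPKM in *CDYL*-sh against 1.75 and 1.63 FPKM in control, and *IGFBP1* at 0.27 and 0.13 FPKM against 0.94 and 1.07 FPKM.

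Because FPKM is per length, it also orders the genes by level. The place of *MUC16*, and with it that of *PAEP* in control, depends on the length by which its counts were divided. That length differed between the groups, as described below. In *CDYL*-sh the order was *MSX1* (120 ± 1.57 FPKM, SD, n = 2), *SOX17* (52.0 ± 2.88), *SPP1* (41.0 ± 0.742), *PAEP* (12.8 ± 1.10), *MUC1* (9.25 ± 0.912), *MUC16* (4.80 ± 0.488), *FOXA2* (0.510 ± 0.184) and *IGFBP1* (0.200 ± 0.099). In control it was *MSX1* (208 ± 10.5 FPKM, SD, n = 2), *SOX17* (85 ± 6.17), *SPP1* (26.8 ± 3.78), *MUC1* (11.3 ± 1.05), *MUC16* (2.66 ± 0.417), *PAEP* (1.69 ± 0.0849), *IGFBP1* (1.0 ± 0.0919) and *FOXA2* (0.330 ± 0.0141). *PAEP* thus stood at rank 4 in *CDYL*-sh and rank 6 in control, while the 3 most abundant genes kept their places. Neighbours in these orders did not overlap, down to rank 8. At the bottom, *DPP4* lay between 0.02 and 0.04 FPKM in *CDYL*-sh and between 0 and 0.03 FPKM in control, where it overlapped *MSX2* at 0.

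RefSeq promoter sequence was matched for 7 of the 10 genes, not for *SOX17*, *FOXA2* and *IGFBP1*. The bases before the start are shown for the 3 genes past the test that had matched sequence. These are *PAEP*, which rose most, *MSX1*, the most abundant gene of the set, and *SPP1*, the other secreted protein that rose. The bases run 5′ to 3′ on the plus strand of GRCh38.p14, and capitals mark matches on either strand to CCAAT (the CCAAT box) or GGGCGG (the GC box).
*PAEP*, chr9:135561506-135561755: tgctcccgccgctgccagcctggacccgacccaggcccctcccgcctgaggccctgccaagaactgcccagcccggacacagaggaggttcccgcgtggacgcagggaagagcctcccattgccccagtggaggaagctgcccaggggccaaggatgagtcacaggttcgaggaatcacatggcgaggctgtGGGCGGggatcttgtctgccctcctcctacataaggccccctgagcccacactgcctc
*MSX1*, chr4:4859415-4859664: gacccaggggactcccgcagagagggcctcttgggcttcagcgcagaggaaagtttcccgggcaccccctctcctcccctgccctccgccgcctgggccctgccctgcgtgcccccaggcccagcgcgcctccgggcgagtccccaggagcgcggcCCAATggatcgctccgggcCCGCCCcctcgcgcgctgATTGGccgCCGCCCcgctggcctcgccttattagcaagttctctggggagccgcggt
*SPP1*, chr4:87975464-87975666: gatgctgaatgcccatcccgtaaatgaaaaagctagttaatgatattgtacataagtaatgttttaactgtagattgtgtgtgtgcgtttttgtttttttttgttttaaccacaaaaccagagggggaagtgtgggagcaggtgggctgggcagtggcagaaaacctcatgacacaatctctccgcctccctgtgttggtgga

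The *SPP1* stretch ends before the first start that GENCODE annotates, and all counts that follow refer to the 250 bases before the RefSeq start. *MSX1* held 24 CpG and 74.0% GC, *PAEP* 11 CpG and 67.2% GC, and *SPP1* 3 CpG and 44.8% GC, with a median of 58.0% GC over 35116 promoters. *MSX1* had 2 matches to CCAAT, with first bases at positions -94 and -57 from the start, and 2 to GGGCGG, at -75 and -49. *PAEP* had 1 match to GGGCGG, at -58, and *SPP1* had none to either. CCAAT was found in 32.0% and GGGCGG in 42.6% of all promoters. None of these 3 genes matched the TATA box TATAAA (10.7% of promoters), the forkhead motif TGTTTAC (2.98%), the E-box CACGTG (6.34%) or the steroid receptor half-site TGTTCT (12.4%). Each motif was searched on both strands, and a match is only a description of the letters.

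*MSX1* and *SOX17* were the most abundant of the genes, and both fell. The study had already named *MSX1* among the transcripts changed in this RNA-seq. *MSX1* (ENSG00000163132), a homeobox repressor of transcription, is located at 4859665 to 4863936 on chromosome 4 of GRCh38 (plus strand, 2 exons). It measured 193 and 196 CPM in *CDYL*-sh and 349 and 333 CPM in control. The libraries within each group lay close together and the groups did not overlap. The *CDYL*-sh level was 57.1% of control, a log2 fold change of -0.81 (SE, standard error, 0.10, 95% interval -1.02 to -0.59, adjusted p = 2.69e-05 by edgeR). Of all genes tested, 10.9% had a larger change in either direction.

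*SOX17* (ENSG00000164736), an SRY-related factor that is also a regulator of endoderm, is located at 54457935 to 54460892 on chromosome 8 (plus strand, 2 exons). Its level was 108 and 103 CPM in *CDYL*-sh and 181 and 167 CPM in control, again without overlap. This was 60.7% of control, a log2 fold change of -0.72 (SE 0.10, 95% interval -0.94 to -0.50, adjusted p = 8.23e-05 from edgeR). *MSX1* and *SOX17* have 59.8% and 58.2% GC in their canonical transcripts, and 8.69% of tested genes between 55 and 60% GC passed as higher and 17.5% as lower. After offsets for GC content and length the log2 fold changes were -0.79 and -0.65 and both genes passed.

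*FOXA2* (ENSG00000125798), a forkhead pioneer factor gene at 22580998 to 22585455 on chromosome 20 (minus strand, 2 exons), was scarce. It had 37 and 18 counts in *CDYL*-sh and 20 and 18 counts in control, or 1.32 and 0.816 CPM against 0.718 and 0.678 CPM. One *CDYL*-sh library stood above the other 3, which lay close together. The log2 fold change was 0.58 (SE 0.43, 95% interval -0.33 to 1.48, adjusted p = 0.348 from edgeR), and it was 0.19 without *CDYL*-sh replicate 1 and 0.86 without *CDYL*-sh replicate 2. No change of *FOXA2* was called, and the interval leaves room for a small fall and for a rise of more than 2-fold. *MSX2* (ENSG00000120149), the paralog of *MSX1* at 174724582 to 174730896 on chromosome 5 (plus strand, 2 exons), had 0 counts in all 4 libraries, which allows up to 0.107 and 0.136 CPM in *CDYL*-sh and 0.108 and 0.113 CPM in control. No change of *MSX2* next to the fall of *MSX1* could therefore be measured. These limits cover counting error only.

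*PAEP* (ENSG00000122133) had the largest change of the genes. It encodes glycodelin, a lipocalin, and is located at 135561756 to 135566955 on chromosome 9 (plus strand, 7 exons). The libraries held 211 and 150 counts in *CDYL*-sh and 25 and 28 counts in control. Scaled by depth this was 7.53 and 6.80 CPM in *CDYL*-sh and 0.898 and 1.06 CPM in control, so the lowest *CDYL*-sh library lay far above the highest control. The *CDYL*-sh mean was 7.34-fold the control mean, a log2 fold change of 2.79 (SE 0.26, 95% interval 2.25 to 3.32, adjusted p = 1.02e-06 from edgeR), and only 0.179% of the genes tested changed more. With its 57.8% GC, *PAEP* fell in the class of transcripts with more lower than higher genes, and with offsets for GC content and length its log2 fold change was 2.76.

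*IGFBP1* (ENSG00000146678) moved the opposite way. It is located at 45888360 to 45893660 on chromosome 7 (plus strand, 4 exons). It had 10 and 4 counts in *CDYL*-sh and 35 and 37 counts in control, or 0.357 and 0.181 CPM against 1.26 and 1.39 CPM. Both *CDYL*-sh libraries were below both controls, and the gene passed the filter on low counts through the control group. The *CDYL*-sh level was 20.3% of control, with a 95% counting interval of the ratio from 0.110 to 0.378 (exact binomial). The log2 fold change was -1.99 (SE 0.47, 95% interval -2.98 to -1.01, adjusted p = 0.00451 from edgeR). Without *CDYL*-sh replicate 2, which held 4 of the 14 counts of its group, the log2 fold change was -1.70 (adjusted p = 0.0648 by edgeR, where 19 alternatives gave 0.000153 to 0.120) and was not called, nor was it with limma on log2 FPKM. Only 0.774% of the genes tested had a larger change.

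*SPP1* (ENSG00000118785) is located at 87975667 to 87983532 on chromosome 4 (plus strand, 7 exons) and overlaps an unnamed antisense lncRNA gene. It stood at 45.8 and 47.6 CPM in *CDYL*-sh and 34.4 and 28.6 CPM in control. The groups did not overlap, and the controls were farther apart than the *CDYL*-sh libraries. The *CDYL*-sh level was 148% of control, a log2 fold change of 0.57 (SE 0.12, 95% interval 0.31 to 0.83, adjusted p = 0.00258 from edgeR). The *SPP1* transcript has 41.1% GC, and with offsets for GC content and length its log2 fold change was 0.37 (adjusted p = 0.00780). With limma on log2 FPKM its log2 fold change was 0.60 and 0.62 with pseudocounts of 1 and 0.1, as large as from the counts, but it was not called (adjusted p = 0.0632 and 0.0629, against a lowest value of 0.000175 over 20 alternatives).

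**Figure D2:**
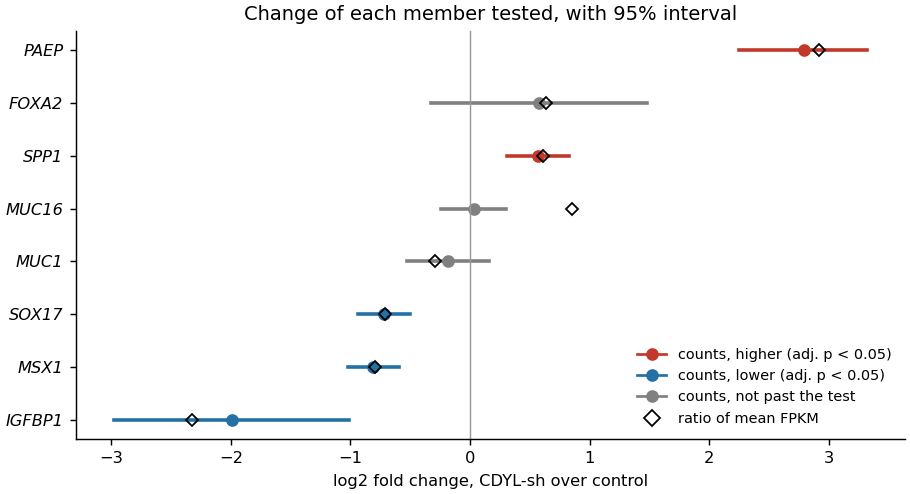
Log2 fold change of the 8 genes tested, *CDYL*-sh over control, from the counts (points with 95% intervals; red higher, blue lower, grey not past the test), with the log2 ratio of the mean FPKM as open diamonds. *PAEP* lies at 2.79 and *IGFBP1* at -1.99, and *MUC16* is the only gene whose diamond lies outside the interval from the counts.

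The mucin genes did not pass the test on counts. *MUC1* (ENSG00000185499), at 155185824 to 155192916 on chromosome 1 (minus strand, 8 exons), encodes a membrane mucin of the apical surface. It measured 10.5 and 9.52 CPM in *CDYL*-sh and 11.7 and 11.0 CPM in control. The groups came close without overlapping, and the log2 fold change was -0.18 (SE 0.16, 95% interval -0.53 to 0.16, adjusted p = 0.448 from edgeR). The interval excludes a fall or a rise of 2-fold. Another protein-coding gene annotated on the same strand overlaps *MUC1*, so its reads may be split.

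*MUC16* (ENSG00000181143), which encodes the CA125 antigen, is located at 8848844 to 9010390 on chromosome 19 (minus strand) and has 84 exons in a canonical transcript of 43816 bases. Its libraries held 787 and 576 counts in *CDYL*-sh and 692 and 751 in control, or 28.1 and 26.1 CPM against 24.8 and 28.3 CPM. The groups overlapped, with a log2 fold change of 0.03 (SE 0.13, 95% interval -0.24 to 0.30, adjusted p = 0.890 from edgeR). The deposited FPKM of the same gene did not overlap, at 4.46 and 5.15 FPKM in *CDYL*-sh and 2.36 and 2.95 FPKM in control, which is 1.81-fold the control mean. With limma on log2 FPKM the log2 fold change was 0.67 and 0.84 with pseudocounts of 1 and 0.1, and neither passed (adjusted p = 0.0982 and 0.0920).

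The length by which each count had been divided was worked out as the count divided by the FPKM and by the library total. For *MUC16* it was 6.43 and 5.01 kilobases in *CDYL*-sh and 10.6 and 9.44 kilobases in control, a log2 difference of -0.81. Over 12614 tested genes with at least 1 FPKM in every library, the median difference was 0 the 5th and 95th percentiles were -0.22 and 0.26, and 0.571% differed by as much as *MUC16*. All 4 lengths are far below that of the canonical transcript. For *MSX1* the implied length was 1.63 kilobases in each library, and for *SOX17*, *PAEP*, *SPP1* and *MUC1* the log2 difference was between -0.03 and 0.11. The implied length restates the gap between *MUC16* counts and FPKM, from which it is computed, and is no separate evidence. Which of its transcripts the reads came from was not tested.

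**Figure D3:**
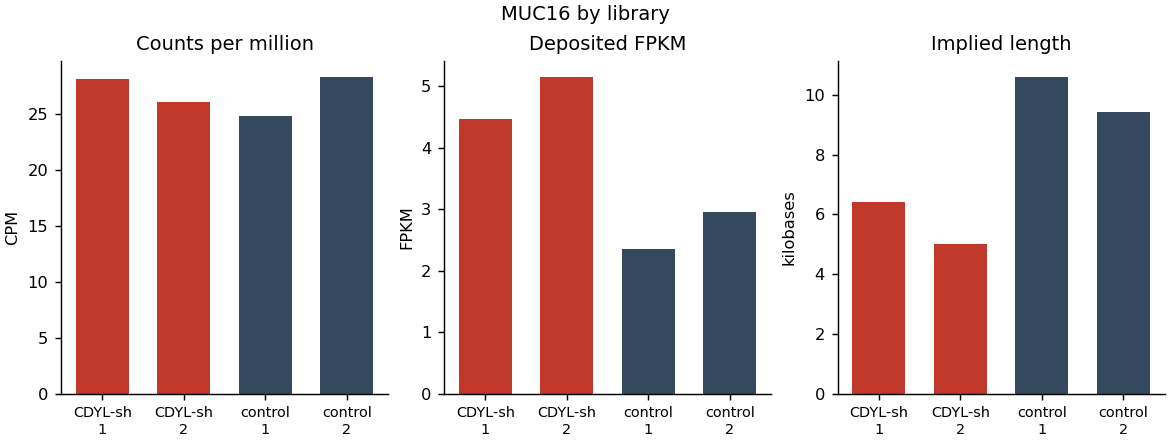
*MUC16* in each library as CPM (left), as deposited FPKM (middle) and as the length in kilobases implied by both (right), with *CDYL*-sh in red and control in dark. CPM overlap between the groups, while FPKM is higher in both *CDYL*-sh libraries and the implied length is 6.43 and 5.01 kilobases against 10.6 and 9.44 kilobases.

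*DPP4* (ENSG00000197635), at 161992245 to 162074394 on chromosome 2 (minus strand, 26 exons), was close to absent. It had 2 and 2 counts in *CDYL*-sh and 3 and 0 counts in control. Both groups were at or near the limit that a count of 0 allows, so no fold change is given.

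Genes related to these 10 by family, function or expression were examined in 10 lists. The share past the test ran from 25.0% for steroid hormone response genes to 52.4% for mucins, beside 25.7% of all genes tested, and nothing particular to a list is read from it. Of 50 mid-secretory and receptivity genes 29 were tested, of which 11 were higher, 1 was lower and 17 did not pass, with a median log2 fold change of 0.38 against 0.01 over all genes. The metallothionein genes *MT2A* and *MT1X*, whose family members are similar enough to share reads, had log2 fold changes of 0.99 (SE 0.12) and 0.96 (SE 0.14). *LAMB3*, a laminin chain, had one of 0.84 (SE 0.12). Of 16 decidual genes tested, 3 were higher and 4 lower with a median of -0.05: the repressor gene *BCL6* rose by 1.52 (SE 0.17), and *IGFBP3* and *GATA2*, a factor of the progesterone response in mouse uterus, had log2 fold changes of -0.99 (SE 0.11) and -0.74 (SE 0.12). Calls in the decidual list thus went both ways beside the fall of *IGFBP1*. Within that list *PRL* and *DCN* had no counts. Others did have counts: *FOXO1* had 439 and 338 in *CDYL*-sh and 398 and 340 in control, and *HAND2* 81 and 75 against 85 and 93. How decidual cells behave cannot be read from this epithelial line.

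Of 20 genes of gland development and its regulators, 1 was higher, *LGR5*, a receptor for R-spondins, with a log2 fold change of 1.14 (SE 0.15). Another 6 were lower, among them *GATA2* and *CTNNB1*, and the median was -0.30. Of 23 MSX partners and related homeobox genes, 2 were higher and 6 lower with a median of -0.19. *DLX5*, a homeobox gene of the Distal-less family, had a log2 fold change of -1.16 (SE 0.18) and *ID2*, a target of bone morphogenetic proteins, one of -0.51 (SE 0.11), while *LHX1* rose to 1.67 CPM in *CDYL*-sh, against 0.403 CPM in control. Of 20 steroid hormone response genes, 4 were higher and 1 lower with a median of 0.02, a share of 25.0% that lies at the 25.7% of all genes. They included the coactivator gene *NCOA3* at 0.71 (SE 0.13), *CYP26A1*, which degrades retinoic acid, at 1.33 (SE 0.33), and the mineralocorticoid receptor gene *NR3C2* at 1.30 (SE 0.34).

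Among the families of the secreted and surface proteins, changes went both ways. Of 21 other mucin and mucin glycosylation genes, 4 were higher and 7 lower. The secreted gel-forming mucin genes *MUC6* and *MUC2* measured 0.544 and 2.15 CPM in *CDYL*-sh, against 2.91 and 6.71 CPM in control, with log2 fold changes of -2.27 (SE 0.35) and -1.59 (SE 0.26). The sialomucin gene *PODXL* had one of -0.84 (SE 0.11). Of 16 genes of insulin-like growth factor signalling, 4 were higher and 3 lower. *IGFBP3* and *IGFBP2* encode binding proteins like IGFBP1, and they stood at 555 and 1040 CPM in *CDYL*-sh, against 1100 and 607 CPM in control, with log2 fold changes of -0.99 (SE 0.11) and 0.78 (SE 0.12). The mRNA-binding protein gene *IGF2BP1* had one of -1.01 (SE 0.12).

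Of 14 osteopontin receptors and related matrix genes, 4 were higher and 2 lower. *CD44*, a receptor of osteopontin, and *ITGB8*, an integrin chain that pairs with the alpha V chain, rose by 0.58 (SE 0.10) and 1.88 (SE 0.22), and *TGM2*, a transglutaminase that cross-links osteopontin, had a log2 fold change of -1.53 (SE 0.11). Of 16 genes related to DPP4, 5 were higher and 3 lower. *CPD*, a carboxypeptidase, *CXCR4*, the receptor of the DPP4 substrate CXCL12, and *PREPL*, a peptidase of the prolyl oligopeptidase family, rose by 0.97 (SE 0.12), 1.19 (SE 0.17) and 0.70 (SE 0.14). The canonical transcripts of *ITGB8* and *PREPL* have 38.7% and 37.0% GC. Among tested genes under 40% GC, 26.1% passed as higher and 4.04% as lower. Of 7 lipocalin genes other than *PAEP*, 3 were higher, the plasma protein genes *AMBP* at 0.73 (SE 0.23), *RBP4* at 0.35 (SE 0.11) and *ORM1*, a near copy of *ORM2*, at 2.23 (SE 0.63) from a mean of only 0.460 CPM in *CDYL*-sh and 0.0411 CPM in control. *ORM1* passed the filter on low counts only through the *CDYL*-sh group, where it is high. The rises of *AMBP* and *RBP4* were smaller than that of *PAEP*, though this difference was not tested. For *ORM1*, near absent in control, the prior count of 2 shrinks the log2 fold change, so it is not ranked against *PAEP*.

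List counts moved with the setting. The fit without *CDYL*-sh replicate 2 filtered the genes anew (16723 tested), and the fit with offsets tested 15828, against 16158. Counts and medians of a list therefore cover partly different genes. Without *CDYL*-sh replicate 2 all genes gave 1159 higher and 923 lower calls, against 2201 and 1956 with all libraries, and the lists lost calls as well. The mid-secretory list then had 8 higher and 0 lower with an equal median of 0.38, and the lipocalins had no call with a median of 0.40, against 0.35. There were 1 higher and 2 lower decidual genes, 1 and 3 for gland development, 1 and 4 for MSX partners, 2 and 0 for steroid hormone response, 2 and 4 for mucins, 3 and 2 for insulin-like growth factor signalling, and 3 and 1 each for the osteopontin and DPP4 lists. With offsets for GC content and length all genes gave 2415 higher and 2832 lower calls. The lists then gave 12 higher and 3 lower for the mid-secretory genes, 3 and 3 for decidual genes, 4 and 6 for gland development, 2 and 7 for MSX partners, 4 and 3 for steroid hormone response, 3 and 9 for mucins, 5 and 5 for insulin-like growth factor signalling, 5 and 2 for the osteopontin list, 3 and 5 for the DPP4 list and 3 and 0 for the lipocalins.

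**Figure D4:**
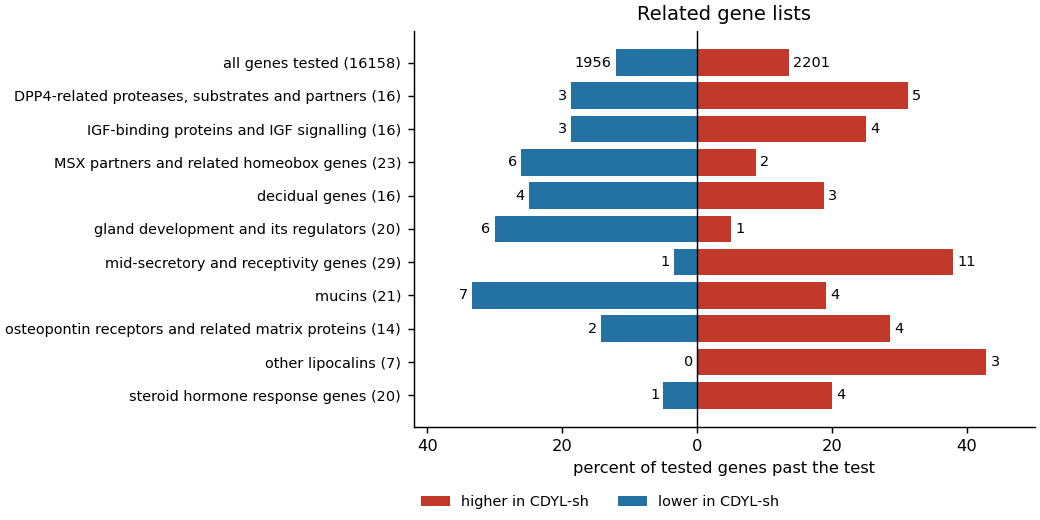
Percent of the tested genes of each related list, and of all genes tested, that were higher (red, right of 0) or lower (blue, left of 0) in *CDYL*-sh, bars carrying their gene counts and parentheses the genes tested. The mid-secretory list has 11 higher and 1 lower, and the gland development list 1 higher and 6 lower.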

How the data were processed

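Transcripts of Ishikawa cells were sequenced in 2 *CDYL*-sh and 2 control libraries (TruSeq, paired-end), and TopHat was used by the authors to align reads to GRCh38.p10. RSEM and edgeR are further tools in the submitters' processing notes, with no role given. The deposited expected counts are estimated reads per gene, and the deposited FPKM were normalized by the authors for length and depth. The annotation release is not given in the sources used here. Symbols were found for 98.1% of identifiers. Positions, lengths and GC content are those of GENCODE release 44 on GRCh38 (canonical transcripts), and promoters are RefSeq's.

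Expected counts were rounded, filtered with filterByExpr (16158 genes), normalized by TMM and tested with edgeR 4.0.16 (glmQLFit, glmQLFTest, prior count 2, R 4.3.3), with Benjamini-Hochberg adjustment over all genes tested. Intervals of fold changes use the standard error and edgeR's degrees of freedom. The test was tested on simulated data.

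Alternatives were RLE, upper-quartile and library-size scaling, other filters, unrounded counts, DESeq2 1.42.0, limma 3.58.1 (voom, and log2 FPKM with a pseudocount of 1 or 0.1 at a mean of at least 0.5 FPKM), edgeR's exact and likelihood ratio tests, a replicate block, each library left out, GC and length offsets, and TPM. Named were the 10 genes, *CDYL*, up to 3 genes of each list by adjusted p, and markers. The genes and lists were chosen with earlier results of these data known. List counts without *CDYL*-sh replicate 2 or with offsets were added after seeing the data.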

Additional observations from a re-analysis of the deposited data

How the results depend on the processing

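Of the 10 genes, 5 passed the test as reported. The number was also 5 under every other scaling, tool on counts and offset run. It was 4 with at least 10 counts in every library, a filter that *IGFBP1* does not meet, and 3 with limma on log2 FPKM with either pseudocount (1 higher and 2 lower), where *IGFBP1* and *SPP1* did not pass. Leaving out each library in turn gave 4 to 5. Over all genes 4157 passed, against 461 and 507 with limma on log2(FPKM + 1) and log2(FPKM + 0.1), and 2082 to 4006 with a library left out, the lowest without *CDYL*-sh replicate 2. *MSX1* and *SOX17* kept their fall and *PAEP* its rise past the threshold in all 20 alternatives, between -0.84 and -0.78, -0.78 and -0.65, and 2.36 and 2.90 on the log2 scale. The change of *MUC16* turned to -0.063 with offsets for GC content and length and to -0.055 with the offsets and the replicate block, lay between -0.070 and 0.13 with a library left out, and never passed. The labels do not say whether libraries of the same replicate number belong together. Deviations of same-numbered libraries correlated at 0.03, but 2 libraries per group are too few to settle this. With the replicate block 5393 genes passed, 5 of the 10 among them, and 6151 and 5 with the offsets as well. Rescaling FPKM to TPM changed no direction. Depth limits *MSX2*, *DPP4*, *FOXA2* and *IGFBP1*.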

Other observations

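The genes whose values over the 4 libraries lay nearest to each gene past the test are given here as a description, by the Euclidean distance of log2 CPM centred on each gene's mean. *PAEP* had 6 genes outside the lists within a distance of 0.25. The nearest was *KRT16P6* (distance 0.09), a keratin pseudogene that was scarce, at 2.5 CPM in *CDYL*-sh and 0.276 CPM in control. Next was *SLC5A5*, the iodide transporter of the thyroid (distance 0.11), which stood at 4.55 CPM in *CDYL*-sh and 0.553 CPM in control. *IGFBP1* had 1 gene within that distance, *ERVK9-11* (0.20), also scarce at 0.364 CPM in *CDYL*-sh and 1.59 CPM in control. It was followed by the actin-binding gene *TAGLN* (0.28), which stood at 3.51 CPM in *CDYL*-sh and 14.6 CPM in control. The nearest genes to *MSX1* were *CRELD2* and *RBM18* (0.04 each), to *SOX17* *TNS3* (0.02) and *NOL6* (0.03), and to *SPP1* *SNRK* (0.01) and *ZNF766* (0.02). For these 3 genes 394, 648 and 1012 genes lay within 0.25, so the profile over 4 libraries hardly sets them apart. All distances share the same libraries and their depth.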
